A study of Arabidopsis thaliana with 12 samples.

Results

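The islands of H3K27me3 described here lie outside every gene region in which fragments were counted. H3K27me3, the trimethylation of lysine 27 of histone H3, was profiled by chromatin immunoprecipitation and sequencing (ChIP-seq), and an island is a stretch, in steps of 200 bp, that the authors called enriched over input chromatin. The members are the islands of the merged wild-type list that shared no base with any region of the H3K27me3 count table. By this rule 1379 of the 7406 wild-type islands (18.6%) were members, and they covered 1.94 Mb of 19.0 Mb (10.2%). The other 6027 islands reached at least 1 counted region. The members were thus chosen by measured values, the islands called in wild type and the regions called in either genotype, so their length, score and position are given as a description without a test.

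The *ref4-3* plants carry a semidominant allele of *MED5b*, which changes a single amino acid in this tail subunit of Mediator, the complex that links transcription factors with RNA polymerase II. They were compared with wild-type plants of the same accession, Col-0. Both genotypes of *Arabidopsis thaliana* were grown on soil in long days, and whole rosettes were harvested at 21 days of age. Each genotype and mark had 2 biological replicates of rosette tissue, for H3K27me3 and for the histone variant H2A.Z. The remaining 4 of the 12 samples were input chromatin and were not analysed as samples of their own. The H3K27me3 libraries held 5805781 and 8199019 fragments in counted regions in *ref4-3* and 7706433 and 8466471 in wild type. The H2A.Z libraries held 8863116 and 7848342 fragments in *ref4-3* and 9070114 and 10128759 in wild type. A rosette is a mixture of cell types, so fewer cells with a mark and less of the mark per cell cannot be told apart.

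H3K27me3 is written by Polycomb repressive complex 2 (PRC2) and keeps developmental genes silent outside the tissue or stage in which they act. In plants it usually covers the transcribed part of single genes, although promoters and stretches between genes can carry it too. H2A.Z is a variant of histone H2A that the SWR1 complex deposits, often near the start of genes and over the body of genes that are little transcribed, where it accompanies H3K27me3. A microRNA (miRNA) gene gives rise to a hairpin from which an RNA is cut that pairs with target transcripts, and several plant miRNAs act on transcription factors of development.

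The first sequences show stretches with high scores in which the annotation places no gene. They are read from the TAIR10.1 assembly of RefSeq, on the plus strand, for chr5:4788401-4788600 (a whole member), chr3:3121101-3121300 and chr2:52401-52600 (the middle 200 bp of their members). Capitals mark CACGTG, the G-box, which occurred 2 times in the first and was not in the others.
chr5:4788401-4788600: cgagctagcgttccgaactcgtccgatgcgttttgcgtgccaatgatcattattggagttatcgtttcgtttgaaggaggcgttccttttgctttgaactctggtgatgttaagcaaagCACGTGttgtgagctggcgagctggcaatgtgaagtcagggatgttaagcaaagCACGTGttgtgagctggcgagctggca
chr3:3121101-3121300: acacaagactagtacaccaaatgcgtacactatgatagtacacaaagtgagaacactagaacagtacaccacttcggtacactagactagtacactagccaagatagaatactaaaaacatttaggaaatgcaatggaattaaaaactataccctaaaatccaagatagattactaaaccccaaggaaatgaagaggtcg
chr2:52401-52600: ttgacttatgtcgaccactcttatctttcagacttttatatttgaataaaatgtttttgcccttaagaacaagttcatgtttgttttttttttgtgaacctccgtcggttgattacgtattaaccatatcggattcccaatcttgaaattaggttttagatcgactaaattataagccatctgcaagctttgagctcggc

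The next sequences are the middle 200 bp of members beside genes of the meristem and the embryo, whose values differed between the genotypes and which belong to a list described further on. They lie downstream of *KNAT1* (chr4:5144901-5145100), *WUS* (chr2:7806201-7806400) and *LEC2* (chr1:9895401-9895600), on the plus strand of the same assembly. None held one of the motifs searched, and their GC content was 19.5%, 27% and 28%.
KNAT1: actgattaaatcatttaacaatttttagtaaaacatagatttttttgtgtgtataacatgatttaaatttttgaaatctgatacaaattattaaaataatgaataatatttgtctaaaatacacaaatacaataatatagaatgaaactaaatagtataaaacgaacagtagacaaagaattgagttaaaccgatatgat
WUS: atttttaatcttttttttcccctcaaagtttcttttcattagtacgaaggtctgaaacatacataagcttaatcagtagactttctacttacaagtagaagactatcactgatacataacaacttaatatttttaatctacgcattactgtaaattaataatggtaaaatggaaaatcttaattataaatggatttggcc
LEC2: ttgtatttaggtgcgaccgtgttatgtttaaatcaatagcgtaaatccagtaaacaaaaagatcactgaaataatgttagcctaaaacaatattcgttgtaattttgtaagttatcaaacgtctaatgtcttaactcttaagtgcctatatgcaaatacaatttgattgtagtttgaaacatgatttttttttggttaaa

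Members also held miRNA genes, and the mature sequences below come from those whose seed recurred among the members. They are RefSeq's mature sequences in the same assembly, with the seed (bases 2 to 8) in capitals. The seed CGGACCA occurred in 5 of these genes, whose products act on class III homeodomain-leucine zipper (HD-ZIP III) transcripts in leaf polarity. GACAGAA marks miR156, which acts on SPL transcripts and sets the juvenile phase. GGAGAAG marks miR164, which acts on NAC transcripts that include the *CUC* boundary genes, and CCAAAGG marks miR393, which acts on auxin receptor transcripts. The sequences of miR166e-3p, miR166f and miR166g were the same as that of miR166a-3p, that of miR156e as that of miR156c-5p, and that of miR393a-5p as that of miR393b-5p.
miR166a-3p: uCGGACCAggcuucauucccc
miR165b: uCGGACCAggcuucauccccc
miR156c-5p: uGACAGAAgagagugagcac
miR164a: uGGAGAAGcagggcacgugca
miR164c-5p: uGGAGAAGcagggcacgugcg
miR393b-5p: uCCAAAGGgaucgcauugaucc

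The members were shorter and less enriched than the islands that reached counted regions. Their median length was 1000 bp (quartiles 600 and 1800 bp, range 200 to 9000 bp), against 2000 bp in the other islands. Of the members, 167 (12.1%) were no longer than 400 bp, against 6.72% of the other islands, and 22 were at least 5000 bp long, against 955. The score, which the lists give without a name and which in the output format of epic2 is 100 times the log2 ratio of ChIP over input, had a median of 113 (quartiles 77.7 and 161, range 21.7 to 395) in members and of 175 in the other islands. The sequence of members was poorer in G and C, with a median GC content of 31.2% against 36.2%. The genome between genes is itself at 30.6% and that inside genes at 39.0%.

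**Figure D1:**
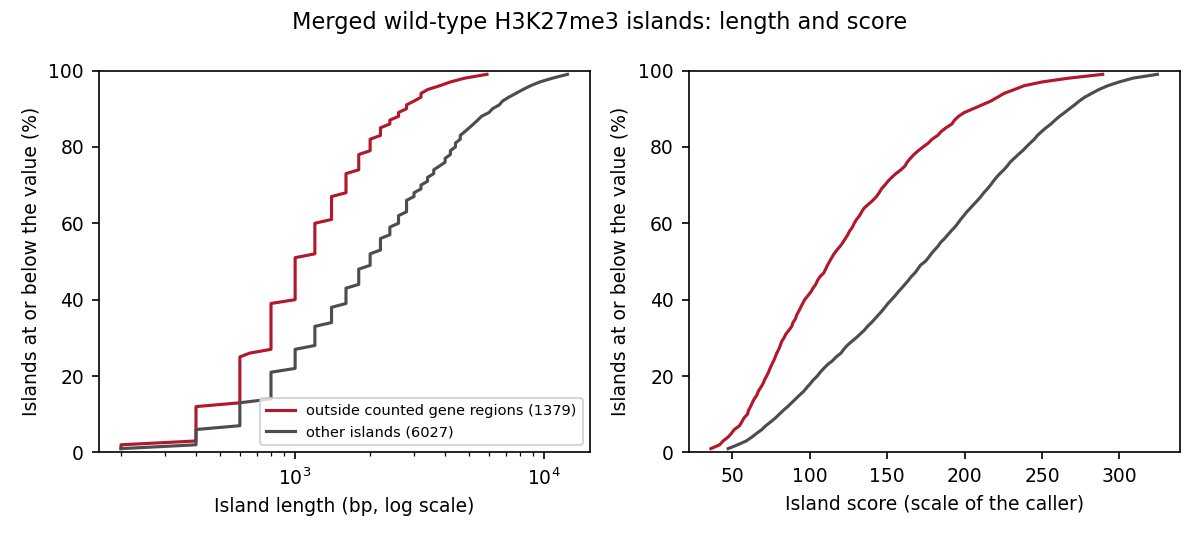
Percent of the merged wild-type H3K27me3 islands at or below each length (left, bp, log axis) and each score (right), as lines over percentiles for the 1379 members and the 6027 other islands. The line of the members lies to the left of the other, with medians of 1000 bp and 113 against 2000 bp and 175.

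The members were often close to another island. Of them, 688 (49.9%) lay within 1000 bp of another wild-type island and 342 (24.8%) within 400 bp, against 37.1% and 17.5% of the other islands. The median distance to the nearest counted region was 2431 bp, and 237 members were more than 10000 bp from any. At the edge of the rule, the 10 members nearest to a counted region were 53 to 208 bp away from it, with scores from 59.9 to 171. The 10 other islands with the shortest stretch in a counted region shared 78 to 191 bp with it, with scores from 53.7 to 143. These ranges overlapped, and the medians were 118 in the members and 91.0 in the other islands, with median lengths of 1200 and 800 bp.

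Most members were in stretches without an annotated gene. Of the 1379, 1142 (82.8%) shared no base with any gene, 127 touched a pseudogene or transposon gene, 56 a protein-coding gene, 32 another RNA gene and 22 a miRNA gene, each member placed in 1 class. The median distance to the nearest protein-coding gene was 781 bp, with 558 members (40.5%) more than 1000 bp and 121 (8.77%) more than 3000 bp away. Members that touched protein-coding genes numbered 63, with at most 206 bp inside. A gene needed 200 bp inside an island to be counted by the authors, so short overlaps and short genes are left to the members.

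Members lay upstream of their nearest protein-coding gene more often than downstream. Of the 1316 that touched no such gene, 869 (66.0%) were on the side of its start and 447 on the side of its end. Upstream lay also 59.4% of the 318 other islands that touched no such gene. Stretches between 2 gene starts held 516 members (37.4%), stretches between a start and an end 676 (49.0%), and stretches between 2 ends 122 (8.85%). These kinds of stretch make up 32.1%, 53.0% and 14.9% of the genome between protein-coding genes. The nearest protein-coding gene had a counted H3K27me3 region of its own for 563 members (40.8%), against 25.8% of the 27444 protein-coding genes. It had a counted H2A.Z region for 1049 members (76.1%), close to the 73.2% of all protein-coding genes.

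Every chromosome held members, and few were in gene-poor stretches. Chromosomes 1 to 5 held 400, 238, 239, 206 and 296 of them, or 13.1, 12.1, 10.2, 11.1 and 11.0 per Mb. Windows of 500 kb held a median of 5 members, 19 of the 240 held none, and the most was 18, from 0.5 Mb on chromosome 2 and from 16 Mb on chromosome 3. The 33 windows with fewer than 50 protein-coding genes held 40 members (2.90%), against 2.14% of the other islands. Of these 40, 67.5% were met by the merged *ref4-3* list, 65.0% by wild-type H2A.Z and 20.0% had a near-identical copy elsewhere in the genome, against 88.4%, 50.3% and 7.62% of the members in the other windows.

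The question of whether these islands persist in *ref4-3* was addressed with its merged island list. It met 1211 members (87.8%, 95% Wilson interval 86.0 to 89.4) in at least 1 bp, against 94.1% of the other islands. The interval covers counting error only, since islands of 1 list are not replicates and each genotype has 1 merged list. By base pairs, 88.5% of the members' length lay in *ref4-3* islands, against 94.7% of that of the other islands. Within classes of length the shares were closer. Members of 200 to 400 bp were met in 62.3% of cases, against 65.9% of other islands of that length. The shares were 83.1% against 86.4% at 600 to 1000 bp, 97.0% against 97.4% at 1200 to 2000 bp, and 99.6% against 99.8% at 2200 bp or more. Over 4 equal classes of the members' score, from low to high, 72.5%, 85.2%, 95.6% and 98.0% were met.

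**Figure D2:**
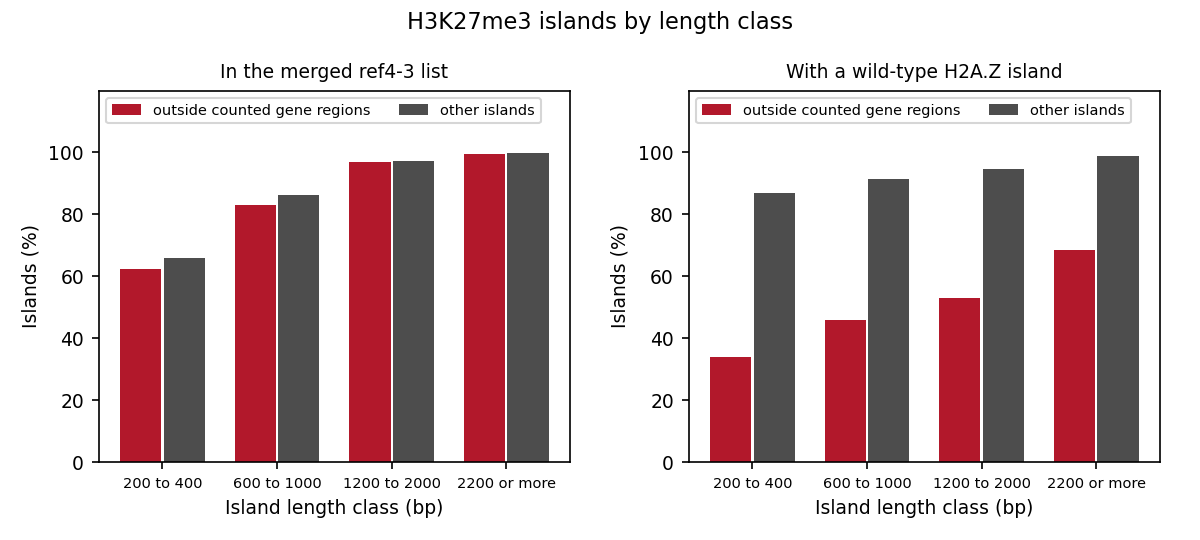
Percent of members and of other wild-type H3K27me3 islands in 4 length classes that met the merged *ref4-3* H3K27me3 list (left) and the merged wild-type H2A.Z list (right), in at least 1 bp. In each length class the shares met in *ref4-3* are within 4 points of each other, whereas H2A.Z met 34.1% of the shortest members against 86.9% of the shortest other islands.

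The single libraries gave the same order of the genotypes. Islands of the *ref4-3* libraries met 1119 and 1160 members, and those of the wild-type libraries met 1224 and 1265. By base pairs these were 83.3% and 85.8% in *ref4-3* and 90.3% and 93.1% in wild type, so both *ref4-3* libraries were below both wild-type ones. The means were 84.5 ± 1.80% and 91.7 ± 1.97% (SD, n = 2 each), a difference of −7.19 points, against −3.94 points in the other islands. The wild-type libraries went into the list that chose the members, which places them higher by construction, so the difference has no test. The shallowest H3K27me3 library was *ref4-3* replicate 1, and the part of depth in these values was not tested. All 4 libraries held 1030 members (74.7%), against 88.2% of the other islands, and 46 members were in none of the 4 and only in the merged list.

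**Figure D3:**
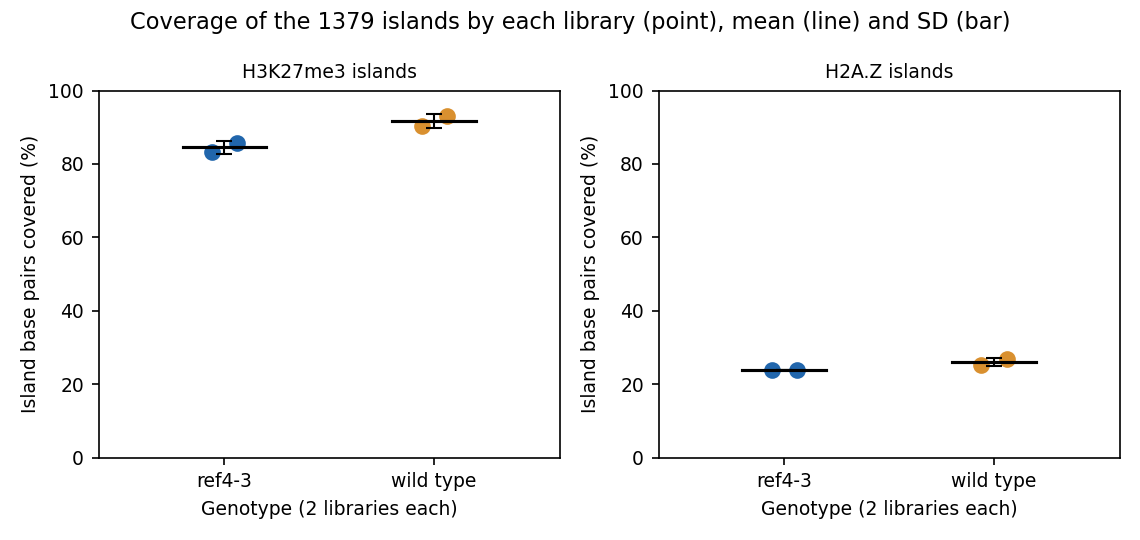
Percent of the length of the members inside the islands of each library (points), with the mean (line) and SD (bar), for *ref4-3* and wild type, in H3K27me3 (left) and H2A.Z (right). For H3K27me3 the *ref4-3* libraries reach 83.3% and 85.8% and the wild-type libraries 90.3% and 93.1%, and for H2A.Z all 4 lie between 24.0% and 26.9%.

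The 168 members that the merged *ref4-3* list did not meet were short and of low score. Their median length was 600 bp and their median score 72.4, against 1200 bp and 121 in members that were met. Both wild-type libraries held 76 of them, 1 held 50 and neither held 42, while 13 were in at least 1 *ref4-3* library. No gene was touched by 142, and 72 met wild-type H2A.Z. The highest score among them was 263, at chr2:713201-713400, which wild-type replicate 2 alone of the 4 libraries held. The next was 256 at chr3:16715401-16715600, at the edge of the non-coding gene AT3G07155, with no island in either *ref4-3* library and scores of 246 and 266 in wild type. It was followed by 218 at chr4:11109601-11109800, held by wild-type replicate 1 alone. Near-identical copies elsewhere covered 72.0%, 76.5% and 56.5% of these first 3, each 200 bp long, and the part of the copies in these values was not tested.

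Of the members missing in *ref4-3*, chr2:3529201-3530200 was the longest of the 5 with the highest scores, at 1000 bp. It lies 1700 bp upstream of *MCM5*, which encodes a subunit of the replicative helicase, and held no copied sequence. Neither *ref4-3* library had an island there, and its library scores were 206 and 217 in wild type. The fifth, chr4:401401-401600, lies 406 bp downstream of *CIP4.1* and had no island in *ref4-3* and scores of 256 and 141 in wild type.

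Where members were met, the *ref4-3* island often had other ends. Start and end were the same in both lists for 450 members (32.6% of all, against 42.9% of the other islands), the *ref4-3* island was longer for 452 and shorter for 280. In 116 of the 1211 cases (9.58%) the *ref4-3* island extended into a counted region, which by the rule no merged wild-type island of a member does. The median of the score differences, *ref4-3* island minus member, was 59.6 for these 116 and −0.08 for the other 1095. A score for a joined island covers its whole length, so such a gain is not a gain at the member itself. Taken in the other direction, 1263 of the 7041 *ref4-3* islands (17.9%) were outside counted regions, and wild-type islands met 1143 of them (90.5%). For 69 of these (6.04%) the wild-type island reached a counted region, with a median score difference of 43.0. Joining thus occurred in both directions.

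By library, 71 of the 1119 members met in *ref4-3* replicate 1 (6.34%) and 112 of the 1160 in replicate 2 (9.66%) were met by an island that reached a counted region. In wild type these were 8 of 1224 (0.654%) and 35 of 1265 (2.77%). The merged wild-type list is at 0 by the rule, which lowers the wild-type libraries too. Of the 116 members joined in the merged *ref4-3* list, 51 were joined in both *ref4-3* libraries, and 39 of these in no wild-type library.

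Scores were compared over the 1030 members that all 4 libraries held. Both *ref4-3* libraries scored above both wild-type libraries at 244 (23.7%) and below them at 221 (21.5%), with a median difference of +1.58. These include members met by an island that reached a counted region, whose score covers the joined length. Without those joined in the merged *ref4-3* list or in any library, 193 of 899 members (21.5%) were higher and 208 (23.1%) lower, and the median difference turned to −0.16. Over all 6345 wild-type islands found in 4 libraries, with no joined island left out, 15.7% were higher and 29.8% lower without overlap. In the islands other than members, again with none left out, these shares were 14.2% and 31.4%, with a median difference of −4.67. The wild-type libraries took part in choosing the members, so the counts are a description.

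All of the 5 longest members were held by all 4 libraries. The 9000 bp of chr1:11723401-11732400, 3412 bp upstream of *NRT1.5*, a nitrate transporter that loads the xylem, scored 204 and 207 in *ref4-3* and 193 and 199.8 in wild type. The 7800 bp of chr4:10513001-10520800, 458 bp upstream of *CYP707A1*, which encodes an enzyme that breaks down abscisic acid, scored 225 and 237 in *ref4-3* and 224 and 223 in wild type. In both, the *ref4-3* libraries were above the wild-type ones by little.

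At chr4:14183801-14191400, 1168 bp upstream of the auxin synthesis gene *YUC8*, the scores were 248 and 259 in *ref4-3* and 228 and 233 in wild type. At chr5:22138001-22145600, 903 bp downstream of AT5G54520, they were 247 and 261 in *ref4-3* and 229 and 234 in wild type. At chr3:1995001-2002400, 992 bp upstream of *MYB108*, which encodes a transcription factor, they were 149 and 161 in *ref4-3* and 118 and 125 in wild type. All of these were higher in *ref4-3* without overlap. So were 23.7% of the members held by all 4 libraries and 15.7% of all islands so held. In the merged wild-type list, H2A.Z covered from 0% at *MYB108* to 44.7% at AT5G54520 of these long members, beside 30.5% of the length of all members.

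The members with the highest scores were short. At chr5:4788401-4788600, the first sequence above, the merged score was 311 in *ref4-3* and 395 in wild type, and the libraries gave 286 and 332 in *ref4-3* and 409 and 383 in wild type. The member lies 404 bp upstream of *P5CR*, which encodes the last enzyme of proline synthesis, and H2A.Z covered it in all 4 libraries. Its *ref4-3* scores were below both wild-type scores. It is also copied over its whole length elsewhere in the genome, and the part of the copies in the score was not tested.

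Members that touched a pseudogene had 3 of the 5 highest scores. The member chr3:16990601-16991200 on the pseudogene AT3G46250 scored 344 and 303 in *ref4-3* and 343 and 320.5 in wild type, and chr1:9571401-9572000 on the F-box pseudogene AT1G27560 scored 316 and 346 in *ref4-3* and 321 and 329 in wild type. Both pairs overlapped between the genotypes. The 600 bp of chr4:661601-662200 shared at most 192 bp with *SADHU5-1*, a non-coding retrotransposon annotated as a pseudogene. This member scored 179.9 and 165 in *ref4-3* and 324 and 307 in wild type, so the *ref4-3* islands were far below without overlap. The merged *ref4-3* island there had a score of 172 and covered 66.7% of the member. The remaining one of the 5, chr4:11097001-11097400 at the edge of AT4G20690, scored 316 and 361 in *ref4-3* and 341 and 301 in wild type and is copied elsewhere over its whole length.

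Members that touch a transcribed pseudogene stood out in their H2A.Z and score. There were 122 of them, 112 with at least 200 bp of the pseudogene, and none of the 926 transcribed pseudogenes of the annotation was counted in either table. Their median score was 162, against 113 over all members. Wild-type H2A.Z met 108 of them (88.5%), and the merged *ref4-3* list met 90.2%. A near-identical copy was present in 17. At chr2:5844001-5845200 on AT2G13920 the scores were 223 and 278 in *ref4-3* and 314 and 292 in wild type, lower without overlap. At chr1:18566401-18567200 on AT1G50130, wholly within H2A.Z, they were 247 and 293 in *ref4-3* and 310 and 289 in wild type, with overlap.

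Of the next highest scores on no gene, some differed between the genotypes and some did not. At chr3:3121001-3121400 the libraries gave 313 and 282 in *ref4-3* and 333 and 310 in wild type, and at chr2:52201-52800, in H2A.Z over its whole length, 213 and 250.0 in *ref4-3* and 303 and 319 in wild type. The second was lower in *ref4-3* without overlap, the first overlapped. At chr2:888801-889600, 163 bp upstream of the Toll-interleukin receptor gene AT2G03030, they were 329 and 301 in *ref4-3* and 309 and 287 in wild type, with overlap. At chr5:10378001-10378800 they were 249 and 251 in *ref4-3* and 318 and 267 in wild type, lower without overlap, and 94.3% of that member has a copy elsewhere.

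Wild-type H2A.Z was far less frequent on members than on other islands. It met 700 members (50.8%, 95% Wilson interval 48.1 to 53.4), against 95.5% of the other islands, and covered 30.5% of their length against 62.8%. The gap was present in each length class, at 34.1% against 86.9% for 200 to 400 bp, 46.0% against 91.3% for 600 to 1000 bp, 53.1% against 94.6% for 1200 to 2000 bp and 68.4% against 99.0% for longer ones. Of the 700, 214 (30.6%) were wholly inside H2A.Z islands, and the median member with H2A.Z had 66.7% of its length covered. H2A.Z was not used by the rule, but islands are not replicates, so the shares are set side by side without a test. The rule does sort islands by genes, since 82.8% of members and 0% of other islands shared no base with one. The part of this in the gap was not tested.

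The kind of gene touched went with H2A.Z. Members on no gene met it in 45.4% of cases (518), those on pseudogenes in 86.6% (110), those on miRNA genes in 86.4% (19), those at the edge of protein-coding genes in 62.5% (35) and those on other RNA genes in 56.3% (18). Their median scores, in the same order, were 109, 161, 127, 128 and 105. Members with H2A.Z had a median score of 128, against 99.6 in members without, and a median GC content of 32.7% against 30.0%. They were closer to a protein-coding gene, at a median of 687 bp against 886 bp.

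H2A.Z over members was set side by side in the single libraries. Islands of the *ref4-3* libraries met 582 and 551 members, against 584 and 625 for the wild-type libraries. By length, both *ref4-3* libraries covered 24.0% of the members, and the wild-type libraries covered 25.3% and 26.9%, so both *ref4-3* libraries were below both wild-type ones. The difference of means was −2.09 points (two-sided exact permutation test over libraries, p = 0.33, the smallest that 2 against 2 libraries can give), and it was −2.03 points in the other islands. No H2A.Z island of any of the 4 libraries met 655 members, and islands of all 4 met 449. In the other islands these shares were 4.26% and 90.4%. The merged *ref4-3* list met 670 members, 49 of which wild type did not, while 79 met H2A.Z in wild type alone.

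The longest members without wild-type H2A.Z were the one upstream of *MYB108*, given above, and 4 more. Upstream of *KAN*, a gene for a transcription factor of the lower leaf side, chr5:5412401-5417200 scored 209.7 and 267 in *ref4-3* and 232 and 231 in wild type, which overlapped. At chr5:21623601-21630400, downstream of the ubiquitin-conjugating enzyme gene *UBC10*, the scores were 190.1 and 210.0 in *ref4-3* and 171 and 188 in wild type. At chr2:12191801-12197000, downstream of the Dof-type gene AT2G28510, they were 191 and 198 in *ref4-3* and 178 and 183 in wild type. Both were higher in *ref4-3* without overlap. At chr4:5359201-5364000, upstream of the disease resistance gene AT4G08450, the scores were 196 and 207 in *ref4-3* and 179 and 189 in wild type, also without overlap. These stand beside the 23.7% of members and 15.7% of all islands in 4 libraries that were higher in the same way.

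Few members held the sequence motifs that were searched in the middle 200 bp of each island on both strands. The telobox AAACCCTA occurred in 2.39% of members, against 3.35% of other islands and 3.17% of all. GAGAGAGA occurred in 1.67% against 3.65% (3.28% of all), and the G-box CACGTG in 2.76% against 3.85% (3.65% of all). These counts describe the letters in a window alone. Near-identical copies elsewhere, of at least 95% identity over at least 100 bp, were found for 110 members (7.98%), against 6.60% of other islands, and covered at least 50% of the length of 24 members (1.74%) against 0.315%.

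The miRNA genes form a distinct set among the members. Of the 326 annotated, 27 lay in 24 members, 26 of them wholly inside, while 94 lay in other islands and 25 were counted themselves. The genes in members were 93 to 184 bp long, below the 200 bp that a counted region needed. Their islands were 600 to 4000 bp long, with a median score of 133 (44.5 to 275). All 24 were met by the merged *ref4-3* list, 20 met wild-type H2A.Z and 20 were in all 4 H3K27me3 libraries. The merged score was lower in *ref4-3* at 14 of the 24, with a median difference of −4.66. Of the 20 in all libraries, 3 were higher (15%) and 6 lower (30%) in *ref4-3* without overlap, close to the 15.7% and 29.8% of all islands. Start and end were the same in both merged lists for 10 of the 24, and elsewhere the scores of the genotypes cover different lengths.

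Islands over genes with the same seed are given singly, since the shares above were close to those of all islands. Of the seed CGGACCA, the island of *MIR165b* scored 284 and 290.2 in *ref4-3* and 265 and 271 in wild type, and that of *MIR166a* 150.3 and 157 in *ref4-3* and 136 and 142 in wild type. Both were higher in *ref4-3* without overlap. Their merged islands were 2600 and 3400 bp long in *ref4-3* and 2800 and 3000 bp in wild type. The island of *MIR166e* scored 90.1 and 87.0 in *ref4-3* and 121 and 108 in wild type, and that of *MIR166f* 61.6 and 54.7 in *ref4-3* and 76.4 and 68.9 in wild type. These were lower in *ref4-3* without overlap, although at *MIR166f* the merged island was 2200 bp long in *ref4-3* and 800 bp in wild type. The island of *MIR166g* scored 242 and 258 in *ref4-3* and 238 and 243 in wild type, which overlapped.

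The islands of the miR393 genes differed from each other. The island of *MIR393b* scored 159.9 and 138 in *ref4-3* and 131 and 122 in wild type, and that of *MIR393a* scored 76.8 and 60.0 in *ref4-3* and 97.6 and 109 in wild type. The merged island of *MIR393b* was 1600 bp long in *ref4-3* and 1200 bp in wild type. Of the miR164 genes, *MIR164a* scored 119 and 118 in *ref4-3* and 184 and 144 in wild type, with merged islands of 1200 and 2000 bp. The *MIR164c* island, with 158 and 182 in *ref4-3* and 163 and 171 in wild type, overlapped. The islands of the miR156 genes overlapped too, *MIR156c* at 230.1 and 232 in *ref4-3* and 229 and 245 in wild type, and *MIR156e* at 225 and 245 in *ref4-3* and 218 and 229.7 in wild type.

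Of the other miRNA members, those of *MIR167c* and of the neighbours *MIR771* and *MIR851* were lower in *ref4-3* without overlap. *MIR167c*, whose product acts on auxin response factor transcripts, scored 105 and 137 in *ref4-3* and 163 and 152 in wild type, with a merged island of 2200 bp in *ref4-3* and 1200 bp in wild type. The island of *MIR771* and *MIR851* scored 80.4 and 62.5 in *ref4-3* and 115 and 118 in wild type. The highest miRNA member, with *MIR859*, *MIR774a* and *MIR774b* in 2400 bp, scored 264 and 275 in *ref4-3* and 275 and 267 in wild type and overlapped. *MIR167a* was in an island of both *ref4-3* libraries, at 85.5 and 57.4, and of no wild-type library, although its member belongs to the merged wild-type list. *MIR172b*, whose product acts on *AP2*-like transcripts of flowering, scored 86.1 and 81.2 in *ref4-3* and 99.8 and 83.9 in wild type.

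**Figure D4:**
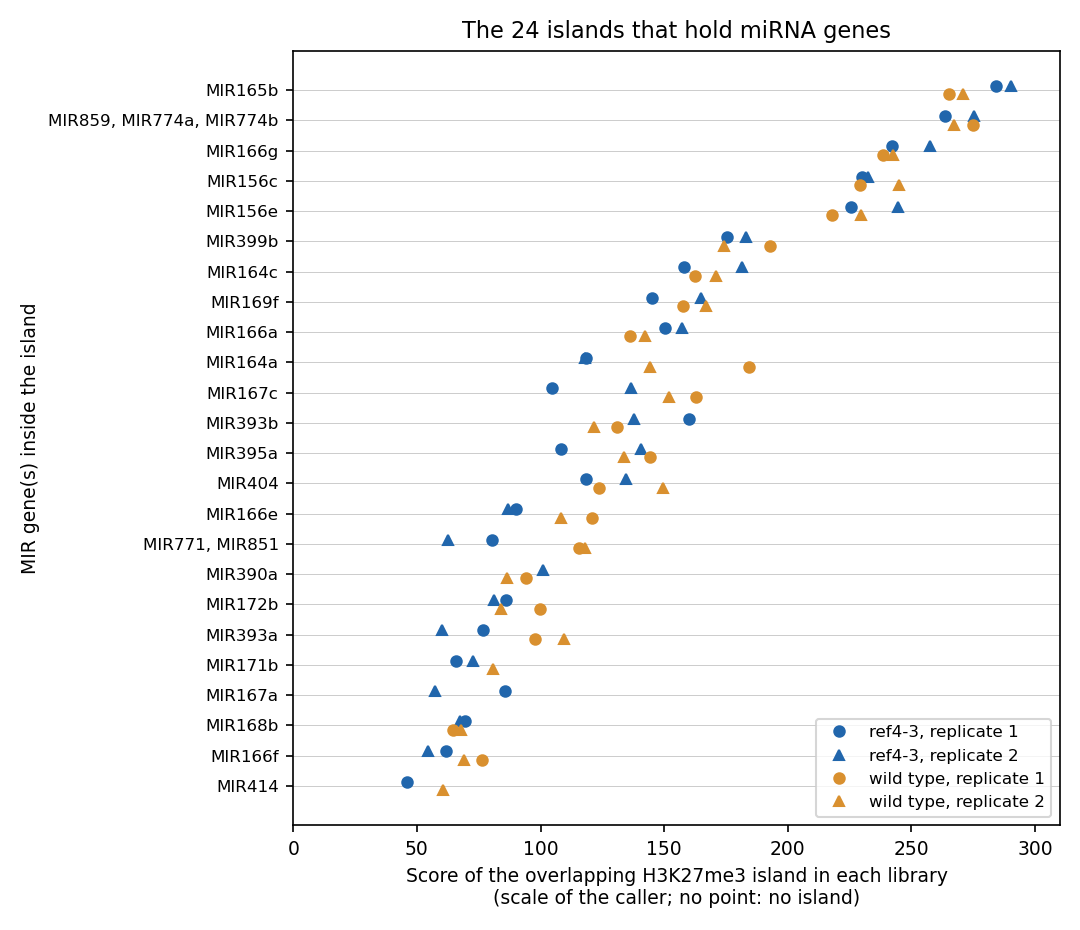
Score of the H3K27me3 island over each member that holds a miRNA gene, per library (circles replicate 1, triangles replicate 2), in *ref4-3* and wild type. Of the 20 members in all 4 libraries, 3 (with *MIR166a*, *MIR393b* and *MIR165b*) have both *ref4-3* points above the wild-type points and 6 have both below.

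A list of 40 known Polycomb targets was used to ask where members lie beside such genes. Of the 40, 37 had a counted H3K27me3 region and 39 a counted H2A.Z region. Members lay within 3000 bp of 9 of the genes, 12 members in all, 7 upstream and 5 downstream. The merged *ref4-3* list met 11 of the 12, and wild-type H2A.Z met 2, at *SEP3* (66.7% of the member) and at the nearer member of *LEC1* (87.5%).

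At *WUS*, which maintains stem cells of the shoot meristem, the island over the member scored 262 and 289 in *ref4-3* and 94.2 and 96.7 in wild type. The islands were 7800 and 5000 bp long in *ref4-3*, where they reached the counted region of the gene, against 1000 bp in each wild-type library. At *LEC2*, a regulator of embryo development, the nearer member scored 259.9 and 272 in *ref4-3* and 199.8 and 170.0 in wild type, with islands of 20800 bp in both *ref4-3* libraries against 1000 bp in both wild-type ones. These score differences stand beside that change in length, since a joined island takes in the gene. The merged *ref4-3* island met 3 merged wild-type islands at *WUS* and 2 at *LEC2*, so wild type held separate islands along it. The counted H3K27me3 regions of both genes met merged islands of both genotypes. Their log2 fold changes were 0.05 at *WUS* and 0.10 at *LEC2*, not called changed in the test given below.

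At *KNAT1*, a homeobox gene of the meristem, neither *ref4-3* library nor the merged *ref4-3* list had an island at the member, and both wild-type libraries held it, at 112 and 115.

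The 2 members upstream of *FT*, which encodes the mobile flowering signal, differed from each other. The nearer, 572 bp from the gene, scored 124 and 96.1 in *ref4-3* and 59.2 and 80.1 in wild type, higher in *ref4-3* without overlap. The farther, at 2172 bp, scored 95.7 and 135 in *ref4-3* and 125 and 102 in wild type, with overlap. At *SEP3*, a MADS-box gene of floral organs, the scores were 197 and 207 in *ref4-3* and 219 and 209 in wild type, lower in *ref4-3* without overlap.

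The members at *MEA* and *TFL1* and the nearer one at *LEC1* overlapped between the genotypes. The nearer one at *LEC1*, a gene of embryo identity, scored 219.8 and 227 in *ref4-3* and 226 and 211 in wild type. The one at *MEA*, which encodes a PRC2 subunit of the seed, scored 133 and 186 in *ref4-3* and 195 and 130.4 in wild type. The one at *TFL1*, which keeps the inflorescence meristem, scored 181 and 150.0 in *ref4-3* and 201 and 171 in wild type. The farther member at *LEC1* scored 150.0 and 153 in *ref4-3* and 149.6 and 138 in wild type, and so did not overlap by a margin of less than 1. The farther one at *LEC2* scored 75.9 and 117 in *ref4-3*, and in wild type replicate 2 alone had an island there, at 62.6.

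**Figure D5:**
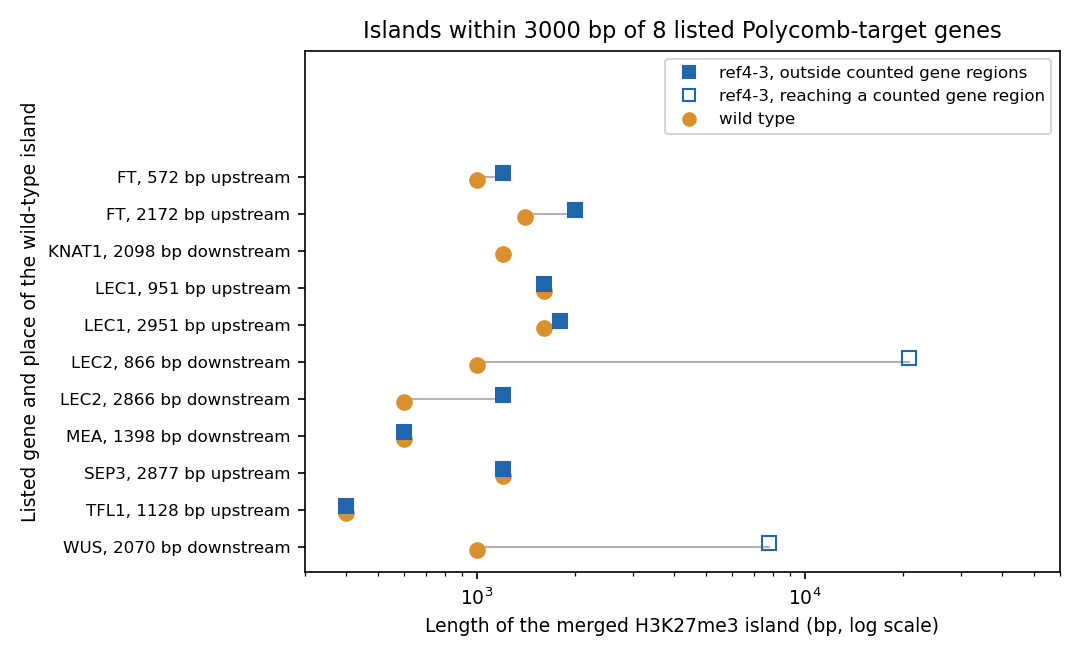
Length of the merged H3K27me3 island (bp, log axis) over 11 of the members within 3000 bp of a listed Polycomb target, in *ref4-3* (squares, open where the island reaches a counted region) and wild type (circles). At *LEC2* and *WUS* the *ref4-3* islands reach the gene, where wild type has separate islands that are not drawn. *KNAT1* has a wild-type island alone.

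Some counted regions of the listed genes themselves were called changed, as were some of all regions. A region was called changed at an adjusted p (FDR) below 0.05 and a fold change above 1.2 in edgeR's exact test over the whole table of a mark. Of the 8663 regions counted for H3K27me3, 5.43% were called higher and 7.54% lower in *ref4-3*. Of the 37 listed genes among them, *DOG1* (seed dormancy) was higher, with 0.33 as the log2 fold change (SE 0.046, edgeR FDR 9.2e-11), and *CUC3*, *SOC1* and *MAF5* were lower, at −0.28, −0.26 and −0.64. *CUC3* sets organ boundaries, *SOC1* promotes and *MAF5* delays flowering. The median over the regions of the list was 0.03, against 0.00029 over all regions. Of the 24960 regions counted for H2A.Z, 2.65% were called higher and 1.63% lower, and of the list *ARR5*, a cytokinin response gene, was higher (0.51) and *MAF5* lower (−0.36), with a median of −0.0046. At an unadjusted p below 0.05 in edgeR's exact test stood 22 of the 38 H3K27me3 regions of the list, against 3046 of the 8663, and 7 of its 58 H2A.Z regions, against 4574 of the 24960. With DESeq2, 2 H3K27me3 regions and 0 H2A.Z regions of the list were called. None of the 9 genes with a member nearby was called for either mark in edgeR's exact test (6 of 9 H3K27me3 and 0 of 15 H2A.Z regions at an unadjusted p below 0.05, and 0 calls with DESeq2). Some passed the FDR threshold and not the fold threshold, such as *SEP3* at 0.17 (SE 0.038, edgeR FDR 0.000204) and *KNAT1* at −0.19 (SE 0.041, edgeR FDR 8.9e-05) for H3K27me3.

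Members have no counts of their own, so the regions within 1000 bp of a member were taken from the same test. For H3K27me3 there were 373, of which 40 were higher (10.7%), 30 lower (8.04%) and 303 not called, beside the 5.43% and 7.54% of all regions. The median log2 fold change of the 373 was 0.03. By the rule no merged wild-type island joins a member to a region, while a *ref4-3* island may. The tested libraries thus took part in choosing these regions, so the shares are a description. Of the 373, 334 shared at least 1 bp with merged islands of both genotypes, and 31 of these were higher and 21 lower. Part of such a region can still come from 1 genotype alone. Regions inside *ref4-3* islands alone numbered 17, of which 9 were higher, and regions inside wild-type islands alone numbered 22, of which 9 were lower. A region inside islands of 1 genotype entered the table through that genotype, which largely set its direction beforehand. All 17 had a positive log2 fold change and 20 of the 22 a negative one, so their counts and values are a description. These origins made up 4.56% and 5.90% of the regions near members, against 1.89% and 4.96% of all regions. The count of 70 called regions fell to 32 with DESeq2, and to 40 when either wild-type replicate was left out. Of the 32, 28 met islands of both genotypes, 0 were in *ref4-3* islands alone and 4 in wild-type islands alone. The excess of higher over lower calls was not kept throughout, with 16 higher and 16 lower in DESeq2, 20 and 20 without wild-type replicate 2, and 37 and 40 without *ref4-3* replicate 1.

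The calls differed between regions near members met in *ref4-3* and near those not met, although most regions of either kind were not called. Near members absent from the merged *ref4-3* list, 1 of 42 regions was higher (2.38%), 14 were lower (33.3%) and 27 not called, with a median log2 fold change of −0.17. Near members present, 39 of 331 were higher (11.8%), 16 lower (4.83%) and 276 not called, with a median of 0.04. Of all regions, 5.43% were higher and 7.54% lower. The same H3K27me3 libraries gave the islands and the counts, so the one is no independent support of the other. The 5 regions near miRNA members had no call (2 at an unadjusted p below 0.05 in edgeR's exact test, and 0 calls with DESeq2).

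Among regions with a mean count of at least 100, the largest H3K27me3 rises near members were at AT5G05600, AT1G22065 and *XTH30*. AT5G05600, which encodes an oxygenase, had 297 and 503 fragments in *ref4-3* and 251 and 276 in wild type (log2 fold change 0.81, SE 0.10, edgeR FDR 9.5e-13). The member beside it, chr5:1670801-1671600, scored 115 and 156 in *ref4-3* and 75.6 and 122 in wild type, which overlapped. AT1G22065, which encodes an uncharacterized protein, had 220 and 329 fragments in *ref4-3* and 181 and 217 in wild type, which is 0.68 on the log2 scale (SE 0.11, edgeR FDR 1.2e-07). Its member chr1:7784401-7785400 scored 96.7 and 103 in *ref4-3* and 99.3 and 87.7 in wild type, which overlapped.

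*XTH30*, which encodes an enzyme that remodels xyloglucan in the cell wall, was higher in H3K27me3. It had 737 and 1011 H3K27me3 fragments in *ref4-3* and 663 and 680 in wild type (log2 fold change 0.60, SE 0.064, edgeR FDR 4.0e-19). Its H2A.Z region near the member, inside a *ref4-3* island alone, had 163 and 144 fragments in *ref4-3* and 98 and 117 in wild type, a log2 fold change of 0.70 whose direction that origin favours. The member 319 bp away, chr1:11574201-11575000, had no wild-type H2A.Z and scored 148 and 136 in *ref4-3* and 169.9 and 158 in wild type. Member and neighbour thus lay on opposite sides.

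With the same minimum count, the largest H3K27me3 falls near members were at AT4G01530, AT5G44770 and AT2G04920. AT4G01530 had 272 and 353 fragments in *ref4-3* and 671 and 653 in wild type (log2 fold change −0.86, SE 0.087, edgeR FDR 5.1e-21). The member beside it, chr4:662601-663000 with a score of 128, was in no island of the merged *ref4-3* list nor of any single library of either genotype. It lies 400 bp from the *SADHU5-1* member described above, whose scores were lower in *ref4-3*. AT5G44770, of the cysteine/histidine-rich C1 family, had 277 and 416 fragments in *ref4-3* and 652 and 740 in wild type (−0.78, SE 0.079, edgeR FDR 4.4e-21). Its member chr5:18063601-18064200 was also absent from *ref4-3* and scored 75.6 and 70.0 in the wild-type libraries. AT2G04920, an F-box gene, had 138 and 157 fragments in *ref4-3* and 264 and 325 in wild type (−0.77), in a region inside a wild-type island alone, which favours that direction. AT2G05425, with a mean count of 85.5 and named after its values were seen, was lower still at −0.92, also in a wild-type island alone. The member beside AT2G04920, chr2:1724801-1725600, scored 117 and 87.3 in *ref4-3* and 98.8 and 82.5 in wild type, which overlapped.

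For H2A.Z, 737 regions lay within 1000 bp of a member, of which 18 were higher (2.44%) and 10 lower (1.36%), beside the 2.65% and 1.63% of all regions. The median log2 fold change was 0.0016. Of the 674 that shared at least 1 bp with merged islands of both genotypes, 10 were higher and 9 lower. All 32 inside *ref4-3* islands alone had a positive log2 fold change, and 28 of the 31 inside wild-type islands alone a negative one, which their origin largely sets beforehand, so they are a description. The 22 regions that shared bases with a member had no call in edgeR's exact test (4 at an unadjusted p below 0.05, and 0 calls with DESeq2), with a median of −0.04. The 17 near miRNA members had no call either (0 at an unadjusted p below 0.05, and 0 with DESeq2). The count of 28 called regions was 1 with DESeq2, and it was 9 or 10 when wild-type replicate 1 or 2 was left out. The direction of most calls turned without wild-type replicate 2, with 3 higher and 7 lower, and without *ref4-3* replicate 1, with 13 higher and 14 lower, and the 1 call of DESeq2 was lower.

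The other regions that the rule named for higher H2A.Z were at AT3G25700, an aspartyl protease gene, with 155 and 123 fragments in *ref4-3* and 83 and 129 in wild type, and at AT1G09490, with 337 and 259 in *ref4-3* and 222 and 236 in wild type. Both lay inside *ref4-3* islands alone, which favours the direction, and their log2 fold changes of 0.58 and 0.57 are given as a description. Scaled to library depth, AT3G25700 had 16.5 ± 1.13 CPM in *ref4-3* and 11.0 ± 2.55 CPM in wild type (SD, n = 2 each). Those named for lower H2A.Z were *NSF*, which encodes an ATPase of membrane fusion, AT5G35341 and AT3G29800. *NSF* had 80 and 72 fragments in *ref4-3* and 131 and 134 in wild type, in a region inside a wild-type island alone, which favours the direction (−0.61). AT5G35341 had 166 and 125 in *ref4-3* and 214 and 238 in wild type (−0.45), and AT3G29800 had 660 and 586 in *ref4-3* and 919 and 1007 in wild type (−0.44, SE 0.066, edgeR FDR 2.6e-08). With DESeq2, 5 of these 6 H2A.Z regions were no longer called.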

How the data were processed

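H3K27me3 and H2A.Z ChIP-seq of *ref4-3* and wild-type rosettes was used, with 2 replicates per genotype and mark. Per the labels and the study's methods, the authors trimmed reads with fastp 0.23.2, mapped them to TAIR10 with Bowtie2, filtered them with SAMtools 1.17 and called islands with epic2 (the processing notes name its predecessor SICER) in bins and gaps of 200 bp, per replicate and on merged replicates. Per island, the deposited lists hold a −log10 value, of a kind that is not stated and not used here, and a score. The deposited counts are raw counts of fragments per gene region, where the authors kept a gene with at least 200 bp in a merged island of either genotype. Counting is by gene, so a stretch where genes overlap counts for each, and near-identical copies may share reads.

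Islands were intersected by shared bases in Python 3.11.15 with pandas 2.3.3 and SciPy 1.17.1, and the printed coordinates are 1-based. Islands were annotated with RefSeq TAIR10.1, in which every region lay inside its gene. Where several islands of another list met a member, the score is that of the longest overlap. Copies were searched with blastn 2.17.0. Counts were tested over each whole table with edgeR 4.0.16 in R 4.3.3 (exact test, TMM factors, Benjamini-Hochberg FDR under 0.05, fold change above 1.2, no filter), and DESeq2 1.42.0 was an alternative. The scaling sets the typical region to no change. The count script was tested on simulated data. P-values cover the spread between 2 replicates per group, and 95% Wilson intervals counting error only. The members and lists were chosen with earlier results of these data known.

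Members named are the 5 longest, the 5 of highest score, the 5 of highest score absent from *ref4-3*, on no gene, on a pseudogene or transposon gene and on a gene under 200 bp, and the 5 longest without wild-type H2A.Z. Neighbouring regions named are, per mark and direction, the 3 called with the largest fold change, a mean count of at least 100 and no overlap between the genotypes. Of the 40 Polycomb targets, those with a member within 3000 bp are named, with the called ones. The member beside 1 of these genes is not reported here. The other miRNA members, the called genes of the list, AT4G01530's neighbouring member and the sequences shown were chosen after their values were seen.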

Additional observations from a re-analysis of the deposited data

How the results depend on the processing

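The members numbered 2918 when an island counted as outside with less than 50% of its length in counted regions, 343 among islands of at least the median score, and 1317 to 1323 in lists of single wild-type libraries. The share met in *ref4-3* was 98.0% for members of at least the median score, and 81.1% to 84.1% with 1 *ref4-3* library at a time. The share with wild-type H2A.Z was 34.7% where at least 50% of the length had to be covered, 18.6% with H2A.Z islands of at least the median score, and 42.3% to 45.3% with 1 library at a time. With each library left out, the genotype difference in covered length ranged from −2.92 to −1.26 points for H2A.Z and from −8.58 to −5.79 for H3K27me3.

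Of the H3K27me3 regions near members, 70 were called, against 32 with DESeq2, 15 at a fold change above 1.5, 20 within 500 bp, 114 within 2000 bp and 40 to 77 with a library left out. Library totals gave 67, of which 34 were higher and 33 lower. Of the H2A.Z regions, 28 were called, against 1 with DESeq2, 4 at a fold change above 1.5, 8 within 500 bp, 51 within 2000 bp and 9 to 34 with a library left out. The causes were not tested. Over all regions, DESeq2 called 190 higher and 223 lower for H3K27me3, against 470 and 653, and 17 and 17 for H2A.Z, against 661 and 407. In an alternative chosen after seeing the data, regions that met merged islands of both genotypes in at least 1 bp gave 52 and 19 called regions. In another such alternative, without members met by an island that reaches a counted region in the merged *ref4-3* list, the median score difference of members was −0.11, and without those so met in any library too it was −0.16, against +1.58. Of 108 values of the 12 named regions under the alternatives, 96 kept their call, 12, all of H2A.Z, were no longer called and 0 reversed. These regions were named for a call without overlap between the genotypes. That choice largely sets their direction beforehand, so the lack of reversals is no support.

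The replicate numbers gave a correlation of same-numbered deviations of 0.073 for H3K27me3 and −0.025 for H2A.Z over all regions, and of 0.184 and −0.051 over those near members. With 2 pairs and no shared batch in the labels, they were not taken as pairs. A quasi-likelihood fit with the replicate block called 71 and 29 regions, against 67 and 28 without the block. Without input counts and totals, absolute levels were not measured, and islands near the caller's limit move between libraries.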
